A study of Arabidopsis thaliana with 7 samples.

Results

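The genes described here are 10 components and outputs of ethylene signalling in Arabidopsis thaliana, out of 25347 genes that the arrays measured with a named probe. They were chosen by locus: the receptor ETR1 (AT1G66340), the kinase CTR1 (AT5G03730), the membrane protein EIN2 (AT5G03280), the transcription factor EIN3 (AT3G20770), the F-box proteins EBF1 (AT2G25490) and EBF2 (AT5G25350), the ERF transcription factors ERF1 (AT3G23240) and ORA59 (AT1G06160), and the defence proteins PR3 (AT3G12500, also HCHIB) and PR4 (AT3G04720, also HEL). Probes were matched to these loci through their RefSeq transcripts, which gave 15 probes, and each of them was well above background on all 7 arrays.

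RNA from whole Columbia-0 seedlings, 3 weeks old, was hybridised to single-colour Agilent arrays, 4 from plants carrying 35S:MYB106VP16 and 3 from wild type. The transgene joins the epidermal MYB factor MYB106 to the VP16 activation domain under the 35S promoter, which is active in most tissues, so the arrays compare broad expression of this activator with none. Several plants of a shared plate were taken for each RNA extraction, the number of transgenic lines is not stated, and nothing says that replicates were grown separately. The p-values therefore cover only how far these particular samples vary, and that variation may be technical. All plants grew on MS agar in long days, and no ethylene treatment is stated for either group.

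Ethylene is a gaseous hormone. Its receptors, in the absence of the hormone, keep the kinase CTR1 active, and CTR1 holds EIN2 inactive. When ethylene binds, part of EIN2 moves to the nucleus and EIN3 accumulates, because the F-box proteins EBF1 and EBF2, which target EIN3 for degradation, are held back. EIN3 in turn activates ERF1, and ERF1 and ORA59 join ethylene with jasmonate in a defence branch whose outputs include the basic chitinase PR3, the hevein-like protein PR4 and the defensin PDF1.2. A second jasmonate branch, through MYC2, leads to wound genes such as VSP2, and the branches antagonise each other.

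Signals are given relative to the 75th percentile of their array, so that 1 means a signal equal to that percentile. Because probes differ in brightness, levels are compared between arrays and never between genes. That percentile corresponded to a processed signal of 2213 to 2858 in the transgenic group and 2492 to 2677 in wild type. MYB106 itself lay between 5.91 and 11.1 in 35S:MYB106VP16 and between 0.138 and 0.188 in wild type. All transgenic arrays shared 1 slide and scan and all wild-type arrays another, so slide and genotype cannot be told apart for any change below. In whole seedlings, moreover, a change in the share of a cell type and a change of RNA per cell cannot be told apart.

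The output end of the branch was higher in 35S:MYB106VP16, while the signalling chain above it moved little. By limma with Benjamini-Hochberg adjustment over 20509 genes, 5 of the 10 members were higher (ETR1, EIN2, ERF1, PR3 and PR4), against 28.1% of all genes tested, and 1 was lower (EBF1), against 24.8%. Called in either direction were 6 members and 52.9% of all genes, so the count of called members is near the background. ERF1, PR4 and PR3 were higher by at least 2-fold, a size that 5.77% of all genes reached upward with a call, and no member was lower by as much, which 4.72% were. The other 7 members had log2 changes between -0.33 and 0.57. The median log2 change of the members was 0.12, beside 0.02 for all genes. The groups did not overlap for 5 members that were above wild type on every array, against 30.4% of genes, and for 2 that were below, against 27.2%.

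**Figure D1:**
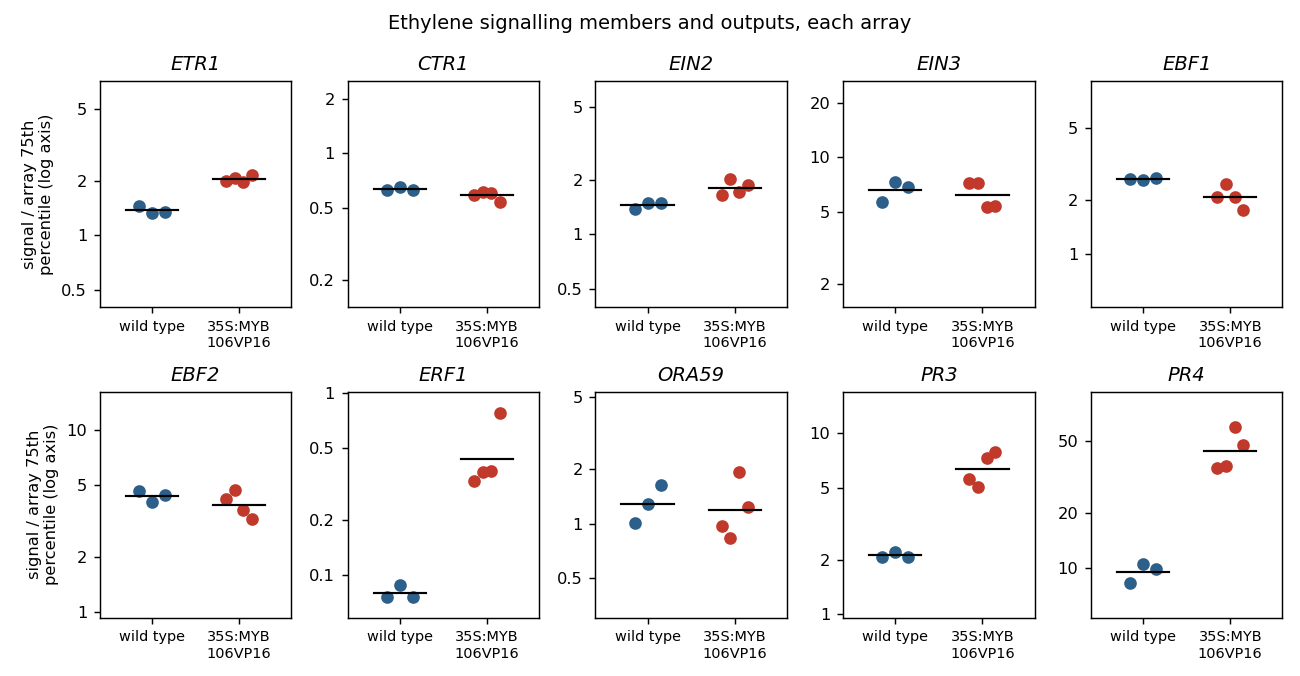
Signal of each member's brightest probe on every array, relative to the array's 75th percentile, on log axes that all span the same fold range; points are arrays (3 wild type, 4 35S:MYB106VP16) and bars are geometric means. ERF1, PR3 and PR4 separate widely, while ORA59 and EIN3 overlap between the groups.

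At the top of the chain, ETR1 was measured by 3 probes that did not move alike. ETR1, a receptor with a histidine kinase domain in the endoplasmic reticulum membrane, gave 2.0, 2.07, 1.96 and 2.15 by its brightest probe on transgenic replicates 1 to 4 and 1.46, 1.33 and 1.35 in wild type. These values do not overlap, and the rise was 1.48-fold (log2 0.57 ± 0.07 SE; limma adjusted p = 0.000731). The middle probe read 0.699, 0.777, 0.638 and 0.625 in 35S:MYB106VP16 and 0.719, 0.734 and 0.702 in wild type, which overlap (log2 -0.07, limma adjusted p = 0.532 over all probes). The dimmest read 0.0278 to 0.0372 against 0.0380 to 0.0401 and was lower (log2 -0.32, limma adjusted p = 0.0382). With the mean over the probes, the log2 change of ETR1 was 0.06 and was not called (limma adjusted p = 0.542), so a rise of the transcript as a whole was not shown.

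The 4 other receptors shared the small size of the change. ERS1, the closest relative of ETR1, was not called (log2 0.13, 95% interval -0.01 to 0.27) although its transgenic arrays, 3.37 to 3.56, lay above the wild-type arrays, 3.12 to 3.22. It was called with median scaling (limma adjusted p = 0.0157). ETR2 was higher by 1.28-fold and ERS2 by 1.19-fold (limma adjusted p = 0.0401 and 0.0264), while EIN4 was not called (log2 -0.12, -0.31 to 0.06). ETR2 lost its call without wild type replicate 1, 2 or 3 or transgenic replicate 4, where the limma adjusted p lay between 0.0681 and 0.128. It was not called either with no filter on dim probes or with the replicate block (limma adjusted p = 0.0583 and 0.118). With the mean over probes ETR2 stood at log2 0.15 (limma adjusted p = 0.202), and EIN4 was called lower (log2 -0.29, limma adjusted p = 0.0459). ERS2 lost its call without transgenic replicate 1 or 2 or wild type replicate 1, 2 or 3 (0.0545 to 0.0787), and it pointed down with the mean over its probes (log2 -0.27). Its call was also lost with normexp background correction and with the replicate block (limma adjusted p = 0.0588 and 0.115). Among 8 receptors and partner proteins in all, 4 rose and 1 fell, with a median log2 change of 0.19. Called in either direction were 52.9% of all genes tested, with 28.1% higher and 24.8% lower, so the number called here is near the background. The count of these 8 that rose was 2 without wild type replicate 1 or 2, and 1 without wild type replicate 3 or with the replicate block. RAN1, a copper transporter that supplies the receptors, rose 1.21-fold and lost its call without wild type replicate 3 (limma adjusted p = 0.0820). RTE1, which promotes ETR1 function, rose 1.49-fold. ARGOS, a small membrane protein that dampens ethylene responses, fell 2.29-fold, from 0.396 to 0.534 in wild type to 0.129 to 0.234 in the transgenic plants. With spike-in scaling none of these 8 genes was higher and 4 were lower.

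The kinase CTR1, which represses the pathway below the receptors, showed 0.587, 0.607, 0.603 and 0.541 in 35S:MYB106VP16 and 0.624, 0.654 and 0.624 in wild type. All 4 transgenic values lay below wild type, but the difference of -0.12 ± 0.07 SE on the log2 scale did not pass (limma adjusted p = 0.192; 95% interval -0.28 to 0.05). EIN2, the positive transducer that CTR1 inhibits, read 1.64, 2.02, 1.71 and 1.87 against 1.37, 1.48 and 1.48. The groups did not overlap and EIN2 rose (log2 0.32 ± 0.09 SE; limma adjusted p = 0.0209). Its call was lost without wild type replicate 1, 2 or 3 (limma adjusted p = 0.0508 to 0.0657), and with spike-in scaling its sign turned (log2 -0.24).

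EIN3, the factor that carries the signal into the nucleus, read 7.18, 7.22, 5.34 and 5.37 in 35S:MYB106VP16 and 5.68, 7.34 and 6.83 in wild type. Transgenic replicates 1 and 2 matched the higher wild-type arrays, and replicates 3 and 4 lay below all of them, so the groups overlapped (log2 -0.08; limma adjusted p = 0.670; 95% interval -0.44 to 0.28). EIL1, its closest homolog, was equally without a call (log2 0.04, -0.18 to 0.26). EIN3 is regulated mainly through protein stability, which arrays do not measure. Of 5 other transduction genes tested, XRN4, an exoribonuclease also known as EIN5 that lowers EBF1 and EBF2 transcripts, was the 1 that rose (1.37-fold; limma adjusted p = 0.0172, and 0.0598 and 0.0608 without wild type replicates 2 and 3). ETP2, an F-box protein that targets EIN2, was not called (log2 -0.11). The share that rose over all genes tested was 28.1%.

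EBF1, which removes EIN3, read 2.06, 2.45, 2.06 and 1.76 in 35S:MYB106VP16, below the narrow wild-type range of 2.58 to 2.63. It fell 1.26-fold (log2 -0.33 ± 0.11 SE; limma adjusted p = 0.0382). That call depended on the setting: without 6 of the 7 arrays in turn, transgenic replicate 2 excepted, the limma adjusted p lay between 0.0533 and 0.106, and its dim second probe overlapped between groups (log2 -0.23). EBF2, which shares the task and whose transcript is itself raised by EIN3, read 4.21, 4.69, 3.62 and 3.23 against 4.62, 4.05 and 4.43. It was not called by either probe (log2 -0.16, 95% interval -0.48 to 0.15, by the brighter one), and its probes differed in their change by -0.08 on the log2 scale, brighter minus dimmer.

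**Figure D2:**
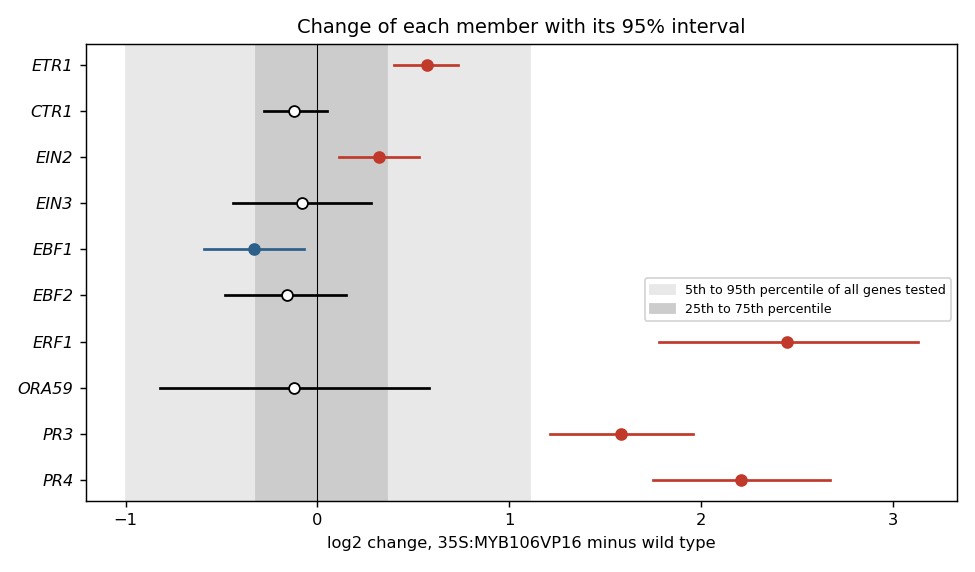
Log2 change of each member (35S:MYB106VP16 minus wild type) with its 95% interval; red is called higher, blue lower and open symbols are not called, and grey bands give the spread of all genes tested. ERF1, PR3 and PR4 lie beyond the 95th percentile of all genes, 1.11, while the chain from ETR1 to EBF2 and ORA59 lie between the 5th percentile, -1.0, and the 95th.

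ERF1 was called and ORA59 was not. ERF1, an activator that binds GCC-box promoters of defence genes, read 0.328, 0.368, 0.373 and 0.781 in 35S:MYB106VP16 and 0.0756, 0.0871 and 0.0754 in wild type. Every transgenic array was above every wild-type array, with replicate 4 far above the other 3. The rise was 5.47-fold (log2 2.45 ± 0.29 SE; limma adjusted p = 0.000596), above the change of 99.1% of all genes, and stood at log2 2.17 without replicate 4. ORA59, which binds the same promoter element and integrates jasmonate with ethylene, read 0.970, 0.835, 1.93 and 1.24 against 1.01, 1.28 and 1.63. The transgenic range enclosed the wild-type range, and the wide spread leaves an interval of -0.82 to 0.58 around the log2 change of -0.12 (limma adjusted p = 0.756).

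Within each array, where scaling cancels, the change of ERF1 exceeded that of ORA59 by 2.57 on the log2 scale (SD 0.72 over 4 transgenic and 0.37 over 3 wild-type arrays). The exact two-sided permutation p was 0.0286, the smallest that 35 splits allow. Adjusted over the 6 pairs of members with a shared role, the permutation p was 0.0571 and did not pass. With so few splits no pair could pass on its own, so the adjusted p does not decide this difference. EIN2 against CTR1 and PR4 against PR3 reached the same exact p. Their changes differed by 0.44 and 0.63 on the log2 scale. EBF2 against EBF1 (0.17; exact p = 0.0857), EIN2 against EIN3 (0.40; exact p = 0.0857) and EIN3 against CTR1 (0.04; exact p = 0.857) overlapped between groups.

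The output genes were higher. PR4, a chitin-binding protein of the hevein type, read 35.4, 36.5, 59.9 and 47.5 in 35S:MYB106VP16 and 8.26, 10.5 and 9.78 in wild type. The lowest transgenic array was above the highest wild-type array by a wide margin, and the rise was 4.63-fold (log2 2.21 ± 0.20 SE; limma adjusted p = 0.000252). PR3, the basic chitinase that is a standard reporter of ethylene responses, read 5.57, 5.02, 7.27 and 7.84 against 2.06, 2.20 and 2.07 by its brighter probe. It rose 3.00-fold (log2 1.58 ± 0.16 SE; limma adjusted p = 0.000374). The dimmer PR3 probe read 0.872, 0.882, 1.12 and 1.2 against 0.571, 0.754 and 0.797, a smaller rise of 1.44-fold (limma adjusted p = 0.0298 over all probes). Both PR3 probes thus pointed up without overlap in the main fit, but differed in size by 1.06 on the log2 scale. With spike-in scaling the brighter probe stood at log2 1.02, no more than this difference. A rise by the dimmer probe was therefore not shown under that scaling.

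**Figure D3:**
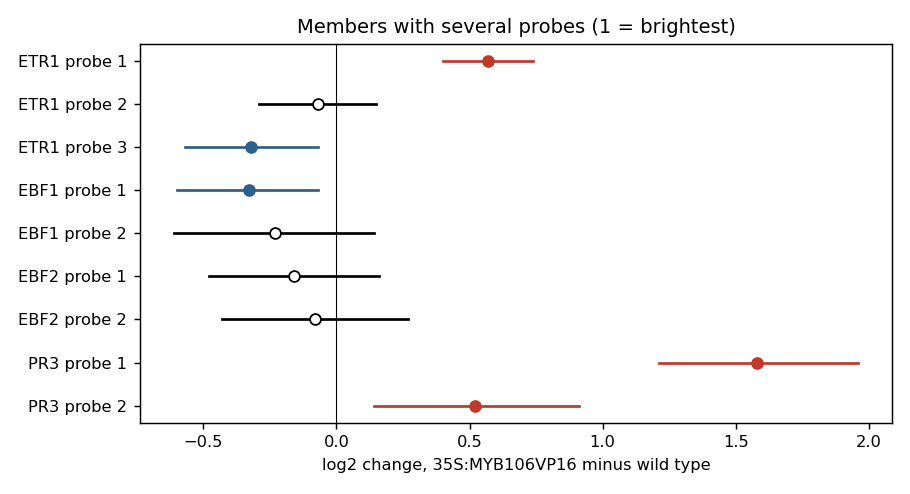
Log2 change with 95% interval for each probe of the 4 members that have several, numbered from the brightest; red is higher, blue lower and open not called, in the fit over all probes. The ETR1 probes point in different directions, while both PR3 probes are higher.

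Over all 15 member probes, 6 were higher and 2 lower, beside 26.8% and 27.1% of all 33215 probes tested (53.9% in either direction). With spike-in scaling 3 of them were higher and 8 lower. In the main fit the higher ones were the brightest ETR1 probe, EIN2, ERF1, both PR3 probes and PR4. The lower ones were the dimmest ETR1 probe and the brighter EBF1 probe.

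The defensins, which share the ERF branch with PR3 and PR4, rose together: 5 of 5 were higher, beside 28.1% of all genes tested. Their median log2 change was 4.74, and 5 of 5 were higher with spike-in scaling too. PDF1.2 read 0.840, 1.23, 3.81 and 1.40 in 35S:MYB106VP16 and 0.0453, 0.0967 and 0.0734 in wild type (22.4-fold; limma adjusted p = 0.000524). The rise was 26.8-fold for PDF1.2b, 27.2-fold for PDF1.2c and 27.5-fold for PDF1.3. These close paralogs could share signal, so their values are uncertain as separate measurements. PDF1.1 lacked a signal well above background in all of wild type. Set against the dimmest signals well above background there, it was 5.52-fold higher, which is not a strict lower bound. With normexp background correction the log2 change of PDF1.1 was 0.98, still called. Transgenic replicate 3 was the highest of the transgenic arrays for PR4, ORA59, PDF1.2, PDF1.2b, PDF1.2c and PDF1.3, and replicate 4 for ERF1, PR3, PR2 and PR5.

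Other regulators near ERF1 mostly went down or were not called, while 24.8% of all genes tested fell and 28.1% rose. Of 15 tested ERF, EDF and related genes, 6 fell and none rose by limma's adjusted p (1, EDF3, was higher at an unadjusted p of 0.0353), with a median log2 change of -0.43 (12 fell with spike-in scaling and 3 in the authors' series table, where 1 rose). ERF2, an activator of defence genes related to ERF1, fell 3.04-fold, from 3.98, 4.02 and 5.04 in wild type to 1.36, 1.2, 1.42 and 1.76 (limma adjusted p = 0.000277). ERF6 fell 1.93-fold (limma adjusted p = 0.00913; 0.0527 with the mean over its probes), and the repressors ERF3 and ERF4 fell 1.70-fold and 1.39-fold. EDF4, an ethylene-responsive factor also named RAV1, fell 1.49-fold. ERF4 and EDF4 lost their calls in the authors' series table (limma adjusted p = 0.208 and 0.112). EDF1, EDF2 and EDF3 were not called (log2 -0.30, -0.55 and 0.64), but all were without transgenic replicate 4 (limma adjusted p = 0.0180, 0.0368 and 0.00972), with EDF1 and EDF2 lower and EDF3 higher. Beside ERF1 on chromosome 3, the neighbouring ERF gene TDR1 was higher by 2.30-fold (limma adjusted p = 0.00373). Of 13 tested genes that lie next to a member, 5 were higher and 4 lower, counts near the shares over all genes, 28.1% and 24.8%.

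Genes of ethylene synthesis moved in both directions. ACC synthases make the precursor ACC and ACC oxidases turn it into ethylene. Of 14 genes of synthesis and its control that were tested, 2 rose and 6 fell, with a median log2 change of -0.05. Without wild type replicate 1, 2 or 3 in turn these counts were 1 and 4. Of all genes tested, 28.1% rose, 24.8% fell and 52.9% were called in either direction, so the number called here is near the background. ACS7 read 0.0307, 0.0330, 0.0281 and 0.0534 in 35S:MYB106VP16 and 0.00572, 0.00397 and 0.00520 in wild type, where 1 of 3 arrays was well above background. It rose 7.15-fold (log2 2.84 ± 0.24 SE; limma adjusted p = 0.000209), a size that rests on dim wild-type signals. ACS2, the other that rose, stood at log2 1.01 (limma adjusted p = 0.0487) and lost its call without transgenic replicate 2 or 4 or wild type replicate 1, 2 or 3 (0.0579 to 0.125). ACS4 fell from 0.203, 0.138 and 0.173 in wild type to 0.0401, 0.0171, 0.00805 and 0.0226, a 9.0-fold difference (log2 -3.17 ± 0.49 SE; limma adjusted p = 0.00164).

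Other ACC synthases were lower as well, ACS11 by 4.44-fold, ACS8 by 3.73-fold, ACS5 by 2.52-fold and ACS6 by 2.15-fold. ACS8 and ACS5 lost their calls in the authors' series table (limma adjusted p = 0.0507 and 0.0685) and without wild type replicate 1, 2 or 3. ACS8 also lost it without transgenic replicate 1 and ACS5 without transgenic replicate 4, and over these single arrays the limma adjusted p lay between 0.0523 and 0.116. ACO1 fell 1.75-fold, whereas ACO4 was not called by its brighter probe (log2 -0.03). ETO1, EOL1 and EOL2, which direct some ACC synthases to degradation, were not called either, though EOL2 was higher with normexp, quantile normalization and median scaling (limma adjusted p = 0.0359, 0.0393 and 0.0297). With spike-in scaling 11 of these genes were lower and 1, ACS7, was higher. With normexp background correction, which adds an offset and so compresses dim signals, the log2 change of ACS7 was 0.89 and the log2 change of ACS4 was -1.92, both still called.

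**Figure D4:**
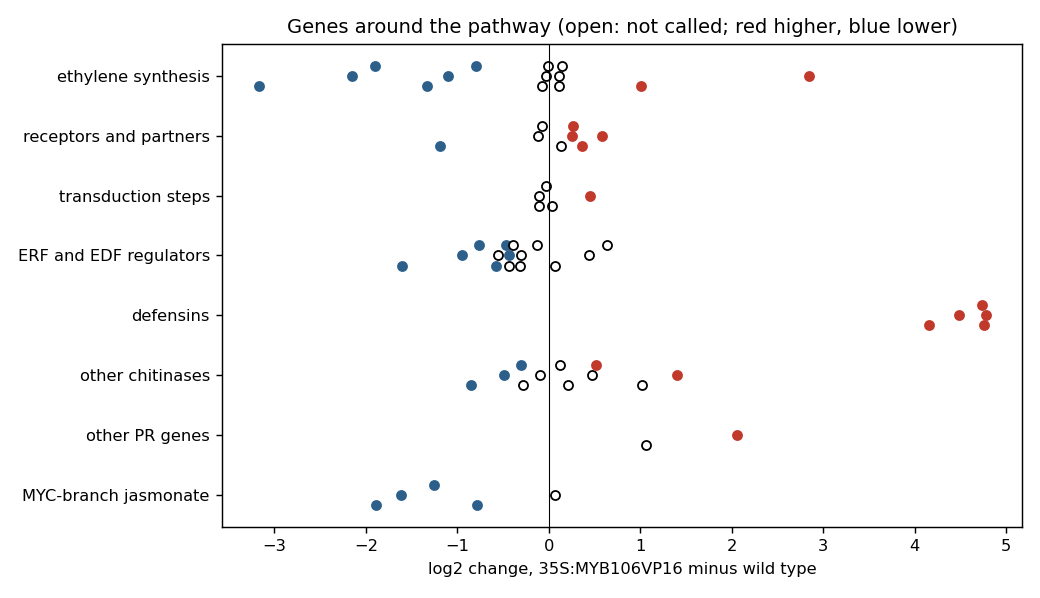
Log2 change of every tested gene in 8 lists around the pathway, 1 point per gene; filled red points are called higher, filled blue points lower and open points are not called. All 5 defensins lie above 4, with PDF1.1 drawn at its fitted value, 4.16, against a wild-type signal not well above background. With a call, 6 ACC synthase and oxidase genes lie below 0, and 4 of the 5 MYC-branch genes are lower.

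The opposing MYC branch of jasmonate signalling was lower: 4 of 5 genes fell, beside 24.8% of all genes tested. Their median log2 change was -1.25, and the count was the same under each scaling except spike-in scaling, where all 5 fell. LOX2 fell 3.71-fold and VSP2 3.08-fold, and MYC2, with 1 wild-type value removed as an outlier spot, 1.73-fold. COI1, the jasmonate receptor, was not called (log2 0.07).

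Other chitinases did not follow PR3 as a group. Of 11, 2 rose and 3 fell, beside 28.1% and 24.8% of all genes tested, with a median log2 change of 0.12. Without transgenic replicate 3 or wild type replicate 3, 1 rose. AT2G43620 rose 2.64-fold (0.221 to 0.410 against 0.094 to 0.111), and CHIC, a class V chitinase, fell 1.80-fold. Of the PR genes tied to salicylic acid, PR2, a glucanase, read 0.0252, 0.0102, 0.0286 and 0.0906 against 0.00698, 0.00422 and 0.0109, so the groups overlapped (4.18-fold higher; limma adjusted p = 0.0377, and 0.0611, 0.0695, 0.0859 and 0.118 without transgenic replicates 1 and 3 and wild type replicates 1 and 2 in turn). The log2 change of PR2 was 0.84 with normexp background correction. PR5 was not called (log2 1.06; limma adjusted p = 0.0549), but was higher with a call in 10 of the 16 alternatives (0.0233 to 0.0461), among them median scaling, the authors' series table, the mean over probes, the replicate block, and the fits without transgenic replicate 1 or 4 or wild type replicate 2. The replicate block and the fit without transgenic replicate 4 gave PR5 the same log2 change, 0.71, because the block takes that array out of the comparison. PR1 was well above background on 1 transgenic array and no wild-type array and was not tested.

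Senescence and organ markers were read on the same arrays, where 28.1% of all genes tested rose and 24.8% fell. Of 6 senescence markers tested 5 rose and 1 fell: their mean log2 signal was 0.47 to 1.26 in 35S:MYB106VP16 and -0.81 to -0.26 in wild type, with NAP, a factor that promotes senescence, 2.20-fold higher. SAG13 was 43.9-fold higher, from wild-type signals of which 2 of 3 were well above background and which spread from 0.00162 to 0.0272. The log2 change of SAG13 was 5.46, with 4.45 without wild type replicate 3, 4.75 without transgenic replicate 4, 6.48 without wild type replicate 2 and 2.81 with normexp background correction. The 1 that fell, SWEET15, lost its call without wild type replicate 1 or 3 (limma adjusted p = 0.0640 and 0.0669). With spike-in scaling 2 of the 6 senescence markers were higher and 1 lower, with a median log2 change of 0.17. SEN1, ORE1 and NYE1 lost their calls there. SAG12, the marker of late senescence, stayed near background throughout. Of 11 root markers 3 rose and 2 fell, at -2.26 to -1.91 against -2.44 to -2.23 in mean log2 signal; the root hair genes PRP3, EXPA7 and COBL9 were higher (log2 2.06, 1.02 and 0.87), while RHD6, also of root hairs, was not called (log2 0.21). The log2 change of PRP3 was 1.08 with normexp background correction. The lower ones were SHR (log2 -0.48) and the iron transporter IRT1 (log2 -0.56), which lost its call without transgenic replicate 1, 3 or 4 or wild type replicate 2 or 3 (limma adjusted p = 0.0589 to 0.142). COBL9 lost its call without wild type replicate 3 (limma adjusted p = 0.0633). EXPA7 and COBL9 also lost theirs with the replicate block (limma adjusted p = 0.0543 and 0.0538). The same held with spike-in scaling (limma adjusted p = 0.0905 and 0.218), where 1 of the 11 root markers was higher and 6 were lower. SCR, CASP1, CASP2, MYB36 and NRT2.1 were not called. Under at least 1 alternative, however, CASP1 was called higher and SCR, CASP2, MYB36 and NRT2.1 lower. Green leaf markers were bright on all arrays and lay at 5.54 to 5.89 against 5.85 to 5.98; 1 of 5, CA1, fell (log2 -0.47), while RBCS1A was not called (log2 -0.20). With the mean over probes 3 of 5 were lower, with a median log2 change of -0.57, and with spike-in scaling 5 of 5. Flower markers lay at -3.97 to -2.80 against -3.71 to -2.57, with 1 of 6, PI, higher (2.26-fold), while AG was not called (log2 -1.52). The part of these markers in the changes of the members was not tested.

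The zero point of the scale depended on how the arrays were scaled, and a change of scaling moved all members nearly alike. Relative to the 75th percentile, 53.2% of all calls were higher; that share was 66.6% with the array median, 76.2% in the authors' series table and 8.67% with scaling to the 7 bright spike-in transcripts, with median log2 changes of all genes of 0.02, 0.14, 0.23 and -0.54. The spike-ins, RNAs added at labelling, were 0.19 to 0.88 higher on the transgenic slide on the log2 scale. ERF1 stood at log2 1.89, PR4 at 1.65 and PR3 at 1.02 with spike-in scaling, all called. There ETR1 was at 0.01, and CTR1, EIN3, EBF1 and EBF2 were lower, between -0.90 and -0.65.

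**Figure D5:**
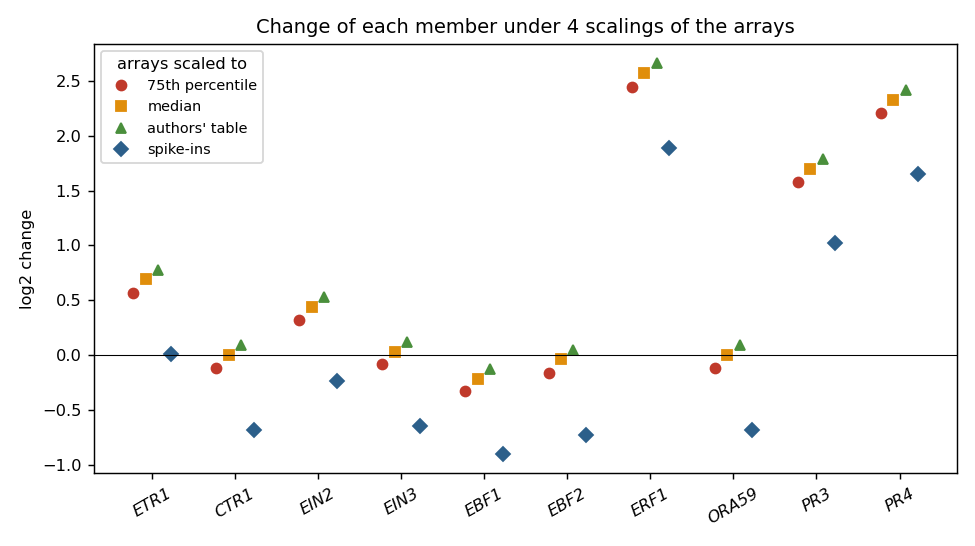
Log2 change of each member with the arrays scaled to their 75th percentile, to their median, as in the authors' series table, or to the spike-in transcripts; each scaling shifts all genes nearly alike. ERF1, PR3 and PR4 stay above 1 under all 4, whereas CTR1, EIN2, EIN3, EBF2 and ORA59 change sign between scalings.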

How the data were processed

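Per the file headers and the submitters' processing notes, the authors' scans were read by Agilent Feature Extraction (9.1.3.1) into a processed intensity per spot, with background subtracted and spatial trends removed. The deposited series table holds the same intensity divided by 1 constant per group and was used as an alternative. Each array had 45220 spots and 43603 probes; outlier spots were removed, replicate spots averaged, and log2 intensity taken minus the array's 75th percentile. No spot was saturated. Through RefSeq accessions without versions, 34185 probes matched 25347 genes of the TAIR10.1 table. A gene was read from its brightest probe and tested where 3 or more arrays had it well above background. The fit used lmFit and eBayes of limma 3.58.1 in R 4.3.3, with no term but genotype, adjusted p under 0.05 and 95% intervals.

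The members, the lists and the rule for named genes were chosen with earlier results of these data known. That rule takes all members, receptors and defensins, EIL1, MYB106, and of each list the 2 called genes of largest change, filled up by smallest p; any other gene was named after its values were seen. Lists are described by counts and medians only, and differences between members within arrays were tested by exact permutation of the arrays. Alternatives were other background corrections, scalings, filters and probe rules, the replicate number as a block, and leaving out each array. The limma fit was tested on simulated arrays. The number of arrays limits the precision.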

Additional observations from a re-analysis of the deposited data

Results flagged for a closer look

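For 5 of 49 values examined, a single 35S:MYB106VP16 array lay apart from its group; chance alone gives about 1 in 20. ERF1 was at -0.36 in replicate 4, while the remaining replicates lay at -1.61 to -1.42. ARGOS stood at -2.95 on replicate 3 (others -2.21 to -2.09), ERS2 at -0.22 on replicate 3 (others -0.05 to -0.02), PI at -0.25 on replicate 3 (others 0.36 to 0.42) and PDF1.1 at -6.31 on replicate 2 (others -4.89 to -4.69). These values are log2 of the signal over the 75th percentile.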

How the results depend on the processing

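All alternatives were planned; a fit with slide as a term could not be made because genotype and slide coincide, and a sign that turned without a call on either side was not counted. At the gene level ERF1, PR3 and PR4 kept direction and call under all 16 alternatives. The causes below were not tested, except that a change of scaling moves all genes nearly alike by construction. With spike-in scaling 1253 genes were higher and 13198 lower, 3 members higher and 4 lower, 3 member probes higher and 8 lower, and 12 list genes higher and 59 lower. There ETR1 stood at log2 0.01, CTR1 at -0.68, EIN3 at -0.65 and EBF2 at -0.73, and the sign turned for EIN2 (-0.24), XRN4 (-0.11), ERS1 (-0.43), ETR2 (-0.20), ERS2 (-0.31) and EIL1 (-0.52). The authors' series table gave 2277 lower genes, of which 14 in the lists. With the mean over probes ETR1 stood at 0.06, ETR2 at 0.15 and ERS2 at -0.27. EBF1, the only member lower, was not called (0 members lower) with median scaling (-0.22), the authors' table (-0.13), no filter on dim probes (-0.33), the mean over probes (-0.28) or the replicate block (-0.26). Member probes lower numbered 1 with normexp or quantile normalization and 0 with median scaling, the authors' table, no filter or the replicate block. Leaving out each array gave 4 to 5 members higher and 0 to 1 lower, 4 to 6 member probes higher and 0 to 2 lower, 4238 to 5453 genes higher, 3833 to 5121 lower, EIN2 at 0.27 to 0.37 and EBF1 at -0.42 to -0.26.

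The labels do not say whether same-numbered arrays share more than a number. Their deviations from the group means correlated at 0.179, -0.026 and -0.082 for replicates 1, 2 and 3. Arrays of unlike number were not compared in this way, so these values do not settle whether arrays are paired. No wild-type array carries number 4, so the replicate block takes transgenic replicate 4 out of the comparison. Log2 changes of the members with the block therefore equal those without that array, and these alternatives are not independent of each other. With the replicate block 4596 genes were higher and 4470 lower, against 5768 and 5083 in the main fit. Leaving out transgenic replicate 4 with no block gave 5453 and 5121. With the block 4 members were higher, and the log2 change of EIN2 was 0.30 (limma adjusted p = 0.0564). Of 523 results of 33 other named genes under alternatives, 474 kept direction and side of the threshold, 26 lost a call, 17 gained one and 6 turned.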
